A study of Mus musculus with 2 samples.

Results

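Imprinted growth regulators are genes of which mainly the maternal or mainly the paternal copy is expressed, and which are known for their effects on growth of the embryo, placenta and brain. A set of 10 such genes was fixed by name: *Meg3*, *Peg3*, *Ndn*, *Mest*, *Igf2*, *H19*, *Dlk1*, *Plagl1*, *Impact* and *Snrpn*. Of these, 6 have a row among the 10666 genes of the expression table when Ensembl identifiers are matched to symbols: *Meg3*, *Peg3*, *Mest*, *Plagl1*, *Impact* and *Snrpn*. The other 4, *Ndn*, *Igf2*, *H19* and *Dlk1*, count as filtered and were not analysed here, so nothing can be read from them about their level in these cells. The names were matched to rows without use of a measured value, but which rows exist depends on the filters of the authors. The members were chosen with earlier results of these data known.

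The data are single-cell RNA-seq of neurospheres, spheroids of neural stem and progenitor cells kept in suspension, which were derived from the dorsal telencephalon of wild-type C57BL/6 embryos at embryonic day 14.5 and grown in medium with EGF and bFGF (10 ng/ml for either). Both cultures belong to 1 condition, 5748 cells with a median of 19477 UMIs in culture 1 and 7057 cells with a median of 14637 UMIs in culture 2. There is no second group, so the results are descriptions without tests. Values are read within each culture, cells are not replicates, and the spread over 2 cultures, for which the sources give no separate animals, may be technical. The cells had been passaged in suspension in a medium that selects for proliferating progenitors, and how many embryos gave rise to each culture is not stated. Total UMIs differ between the cultures, and 48 cell barcodes occur in both (96 cells).

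At an imprinted locus, a DNA methylation mark set in the egg or the sperm is kept through every later division and decides which parental copy is transcribed. Several of these genes lie in clusters in which protein-coding and long noncoding RNAs are expressed from opposite parental copies, as at the *Dlk1*-*Meg3* locus and the *Igf2*-*H19* locus. In the developing brain, members of the family are known from neural stem cells and from neurons, and some act as brakes or accelerators of proliferation. Reads were not assigned to a parental copy here, and the mice are inbred, so every value below is the sum over both copies.

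Each expression value is a signal that the authors had already scaled for the depth of the cell, on a linear scale. The assay reads the 3′ end of RNA molecules and counts a molecule once, so values were not divided by the length of the gene. Detected means a value above 0, and the intervals given for shares are exact binomial ones at 95%, for counting error alone. Coordinates are those of GRCm38.

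*Mest*, a paternally expressed gene for a protein with an alpha/beta-hydrolase fold, lies on the plus strand at chr6:30723547-30748465. Its mean value was 6.26 in culture 1 and 5.93 in culture 2, above 97.4% and 97.3% of all genes of the table. It was detected in 92.1% of cells of culture 1 (interval 91.4% to 92.8%) and in 89.6% of culture 2 (88.8% to 90.3%). Single cells reached values of 59.4 and 68.7. *Mest* had the highest mean of the 6 genes in both cultures, and nearly all cells held it. Its exons overlap those of *Copg2* on the other strand, and counting by strand is not described in the sources used here, so reads from that overlap are uncertain.

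*Snrpn*, paternally expressed and known for a splicing protein of neurons, lies on the minus strand at chr7:59982495-60140219. Its mean value was 1.83 in culture 1 and 1.73 in culture 2, at the percentiles 90.09 and 90.02 of all genes. It was detected in 80.9% of cells (79.8% to 81.9%) and 70.7% (69.6% to 71.8%). In cells of matched depth, those with 15018 to 17565 UMIs (809 cells of culture 1 and 1472 of culture 2), the shares were 77.1% and 74.8%. The difference in detection between the cultures was therefore smaller in cells of similar depth. The annotated gene overlaps exons of *Gm38393* on the same strand, so reads in shared exons cannot be told apart.

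*Peg3*, a paternally expressed zinc finger protein named for this property, lies on the minus strand at chr7:6703892-6730431. Its mean value was 0.609 in culture 1 and 0.516 in culture 2, at the percentiles 73.0 and 71.0. It was detected in 46.2% of cells of culture 1 (44.9% to 47.5%) and in 24.1% of culture 2 (23.1% to 25.1%). At matched depth the shares were 39.4% and 23.1%, a ratio of 1.71. Over the 8333 genes detected in at least 5% of cells, this ratio has a median of 1.04, and *Peg3* stands at the percentile 97.3 of it. The cultures thus differed in how many cells held *Peg3* far more than in its mean.

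The smaller gap between the means of *Peg3* goes with another scale of its values in each culture. Values were turned into estimated UMIs by multiplying by the total UMIs of the cell over their mean. The commonest nonzero value below 1.6 estimated UMIs, here called the step, was read in each culture. It is the median of values within 15% of the fullest bin of width 0.1. Smaller values also occurred, as in 250 cells with *Snrpn* at 0.4 to 0.5 in culture 1. For *Peg3* the step was 0.807 estimated UMIs in culture 1 and 1.34 in culture 2, and 51.2% and 69.9% of the cells with *Peg3* held 1 step. The ratio of culture 1 to culture 2 in mean value was 1.18, and in steps it was 1.92. For *Meg3* the step was 0.669 in culture 1 and 0.434 in culture 2, and the ratio of levels went from 1.0005 in values to 0.586 in steps. Steps of *Mest* (0.997 and 1.09), *Plagl1* (1.11 and 0.959), *Impact* (1.04 and 1.01) and *Snrpn* (0.935 and 1.11) lay closer together. Over 1783 genes detected in 2% to 10% of cells of each culture, the median nonzero value differed by more than 1.5-fold between the cultures in 10.7%. That median is another measure than the step. For *Meg3* it was 0.757 estimated UMIs in culture 1 and 0.800 in culture 2, closer together than its steps. *Peg3* was detected in more than 10% of cells and is not among these genes. For this reason the cultures are compared below by shares of cells, which a scale does not change, and mean values are compared within a culture. The origin of the unequal scales was not tested.

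**Figure D1:**
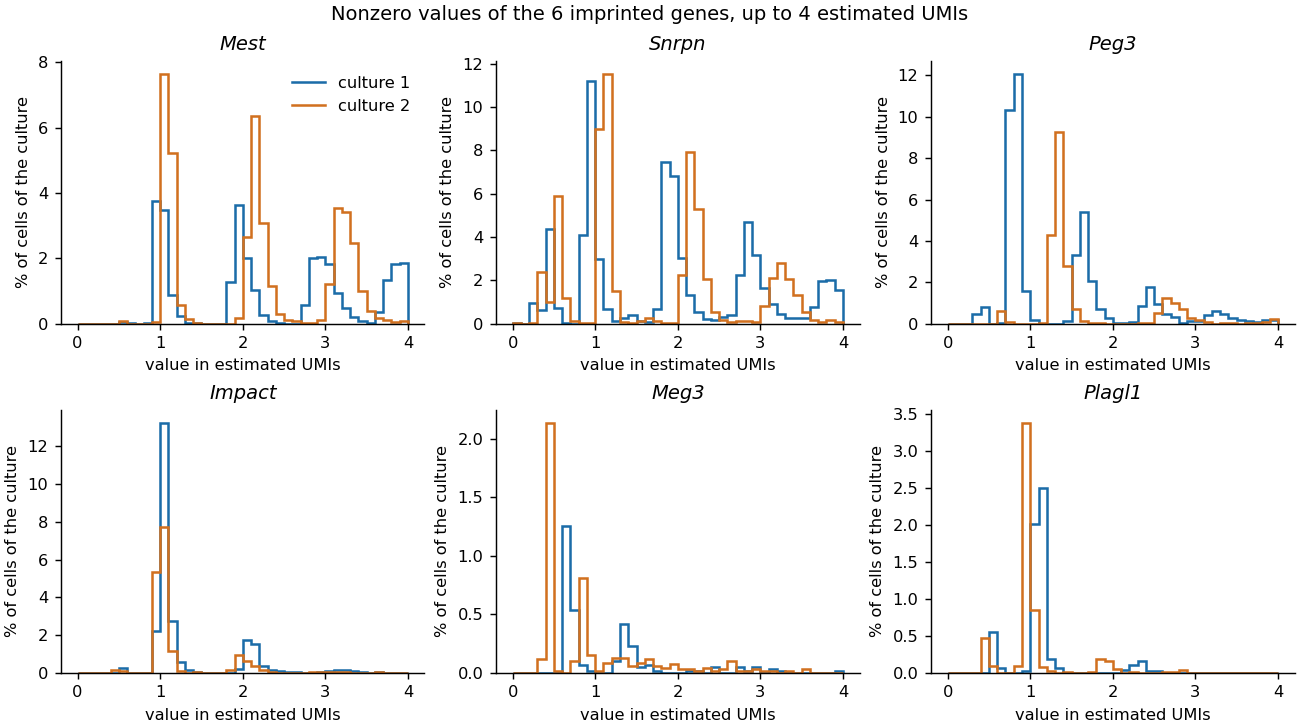
Share of the cells of each culture (y axis, %) against the value in estimated UMIs (x axis, up to 4, in bins of 0.1), for cells with a value above 0. The highest peak of *Peg3* lies at 0.807 estimated UMIs in culture 1 and at 1.34 in culture 2, and that of *Meg3* at 0.669 and 0.434, while the highest peaks of *Impact* nearly coincide.

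*Impact*, a paternally expressed inhibitor of the stress kinase Gcn2, lies on the plus strand at chr18:12955852-12992950. Its mean value was 0.281 in culture 1 and 0.227 in culture 2, at the percentiles 55.0 and 51.7. It was detected in 24.0% of cells (22.9% to 25.2%) and 16.9% (16.1% to 17.8%), and in 21.6% and 17.7% at matched depth. *Impact* was therefore near the middle of all genes and was read in a minority of cells.

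*Meg3*, a maternally expressed long noncoding RNA, lies on the plus strand at chr12:109541001-109571726. Its mean value was 0.0665 in culture 1 and 0.0664 in culture 2, and it was detected in 197 cells of culture 1, 3.43% (2.97% to 3.93%), and in 334 cells of culture 2, 4.73% (4.25% to 5.25%). At matched depth *Meg3* was detected in 2.47% and 3.67% of cells. Most of its signal sat in few cells. The 1% of cells with the most *Meg3* held 75.2% of its summed value in culture 1 and 61.2% in culture 2. Values of at least 5 occurred in 16 and 15 cells, and the highest values were 45.7 and 26.1.

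*Plagl1*, a paternally expressed zinc finger transcription factor known to restrain proliferation, lies on the plus strand at chr10:13060504-13131694. It was detected in 5.76% of cells of culture 1 (5.17% to 6.39%) and 5.50% of culture 2 (4.98% to 6.06%). At matched depth the shares were 3.71% and 4.62%, so which culture had the larger share changed with depth. The signal of *Plagl1* was spread more evenly over the cells that held it than that of *Meg3*. Its mean value was 0.0519 and 0.0632, its highest values were 3.17 and 4.30, and no cell reached 5. The top 1% of cells held 30.9% and 33.0% of its summed value. For the more widely detected genes this share was lower still, from 4.67% for *Mest* in culture 1 to 13.7% for *Peg3* in culture 2. At a few percent of cells, free RNA in the droplets could contribute to *Meg3* and *Plagl1*. Its part was not tested, as no cell class that should lack them was defined.

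The order of the 6 genes by mean value was *Mest*, *Snrpn*, *Peg3* and *Impact* in both cultures. *Meg3* and *Plagl1* came last, and their order was not settled: *Meg3* had the higher mean in both cultures, while *Plagl1* was detected in the larger share of cells in both. Levels in steps gave the same order as mean values in both cultures. Most cells held 2 or 3 of the 6 genes: 37.0% held 2 and 37.5% held 3 in culture 1, and 45.9% and 24.4% in culture 2. None of the 6 was detected in 0.974% of cells of culture 1 and 2.21% of culture 2, and all 6 were detected in 2 and 3 cells. The number detected moved with depth, with medians of 11595 UMIs in cells with none and 28116 in cells with 5 for culture 1, against 11720 and 25714 for culture 2.

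Among protein-coding genes, the share with a row was 0.1503% for genes with a single exon (2 of 1331) and 49.1% for genes with more than 1 exon (10128 of 20620). *Ndn*, which encodes necdin, has 1 exon. *Igf2*, the growth factor of the family, and *Dlk1*, a membrane protein related to Notch ligands, have up to 6 exons, and *H19*, the noncoding partner of *Igf2*, has up to 5. The authors used spliced counts and left out genes seen in very few cells. Which step left each of these 4 genes out was not tested.

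The position of each cell in the cell cycle was taken as deposited by the authors, an angle from 0 to 2π. By the description of the study, positions between 0.25π and 1.5π belong to S, G2 and M phase, with the end of G2 near π, and the other positions belong to G1 or G0. To ask how far each gene varies along the cycle, 2 harmonics of the position were fitted to log2(value + 1) in each culture, and R² is the share of the variance over cells that the fit explains. A gene counts as varying where R² is at least 0.05 in both cultures, which holds for 4.01% of all genes (428 of 10666). It holds for 0 of the 6 imprinted genes.

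The largest R² belonged to *Peg3*, 0.0360 in culture 1 and 0.0188 in culture 2, and *Mest*, 0.0322 and 0.0311. Both lay high among all genes, as *Peg3* was at the percentiles 92.4 and 90.2 and *Mest* at 91.6 and 93.6. *Impact* had 0.0155 and 0.00627, *Snrpn* 0.00908 and 0.00577, and *Meg3* 0.00458 and 0.00519. *Plagl1* had the lowest, 0.00226 and 0.000131. The median of the lower R² of both cultures was 0.00602 over the 6 genes and 0.00183 over all genes. At a threshold of 0.02, which 8.34% of all genes pass, *Mest* alone passes. Most of the variation of each of the 6 genes between cells therefore lay outside the deposited position, as it did for most genes of the table.

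**Figure D2:**
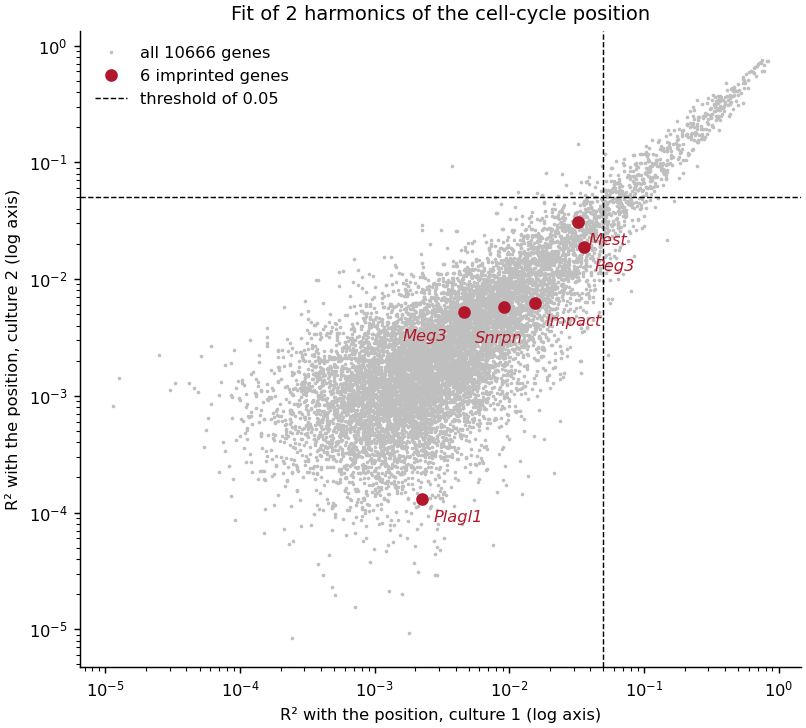
R² of the fit of 2 harmonics of the position in culture 1 (x axis) and culture 2 (y axis), both on log axes, for all 10666 genes (grey) and the 6 imprinted genes (red). The dashed lines mark 0.05, and all 6 imprinted genes lie to the left of and below them, with *Mest* and *Peg3* nearest.

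Mean values were read in 8 classes of equal width, 0.25π. For *Peg3* the mean was highest from 0.75π to π in both cultures, 0.793 in culture 1 and 0.739 in culture 2, ahead of every other class in each. Its lowest mean was 0.406 in culture 1, from 1.5π to 1.75π, and 0.398 in culture 2, from 1.75π to 2π. The highest class was thus 1.95-fold and 1.86-fold above the lowest. The share of cells with *Peg3* was 60.4% and 39.2% from 0.75π to π, against 34.3% and 17.6% in the last class, 1.75π to 2π. Depth moved in the same direction, with medians of 18437 and 22967 UMIs in these classes of culture 1 and 13991 and 17148 in culture 2. With depth in the fit, the position explained a share of 0.0358 and 0.0171 of the variance left after depth. These shares were close to R² without depth.

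*Mest* had a lower mean in the last class than in the other classes together. There its mean was 5.57 in culture 1 and 5.18 in culture 2, against 6.58 and 6.53 over the other 7 classes. In culture 2 it was highest from 0.25π to 0.5π, at 7.76. In culture 1 its highest mean, 8.83, came from 64 cells between 1.5π and 1.75π, while cells from 0.5π to 0.75π had 7.03. The order of the classes was not shared by both cultures, as neither the highest nor the lowest class was the same in both.

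*Impact* had a higher mean in the last class than in the other classes together. Its mean in the last class was 0.374 in culture 1 and 0.274 in culture 2, against 0.239 and 0.190 over the other classes, and it was detected in 28.6% of cells (26.5% to 30.7%) against 22.0% (20.7% to 23.3%) in culture 1 and 18.96% (17.6% to 20.4%) against 15.3% (14.2% to 16.5%) in culture 2. Its highest class was 1.25π to 1.5π in both cultures, at 0.444 and 0.292, with only 85 cells in culture 1. The lowest was 0.178 from 0.75π to π in culture 1 and 0.145 from 0.5π to 0.75π in culture 2. Cells of the last class had fewer UMIs than the others, 18437 against 20217 and 13991 against 15429.

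*Meg3* was likewise higher in the last class, with a mean of 0.120 against 0.0422 in culture 1 and of 0.102 against 0.0378 in culture 2. It was detected in 4.75% of those cells (3.81% to 5.84%) against 2.83% (2.33% to 3.39%), and in 5.78% (4.99% to 6.65%) against 3.89% (3.31% to 4.54%). *Meg3* was seen in 0 of 64 cells from 1.5π to 1.75π in culture 1, too few to show its share there. The class next in order was 0 to 0.25π, at 0.0967 and 0.0588. Within each culture, the mean of this class was above that of every remaining class. By share of cells it did not stand apart. *Meg3* was detected in 3.58% of its cells in culture 1, against 3.73% from 0.25π to 0.5π. In culture 2 the share was 4.99%, against 4.58% from 0.75π to π.

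*Snrpn* differed least between the classes, by 1.53-fold and 1.33-fold at most, with its highest mean from 0 to 0.25π in both cultures, 2.29 and 1.87, and its lowest from 1.25π to 1.5π, 1.49 and 1.403. In the last class it had 1.828 against 1.833 elsewhere in culture 1 and 1.81 against 1.66 in culture 2. *Plagl1* had its highest mean from 1.5π to 1.75π, 0.0797 and 0.0852. Its lowest was 0.0144 in 85 cells of culture 1 and 0.0530 in culture 2, both from 1.25π to 1.5π.

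**Figure D3:**
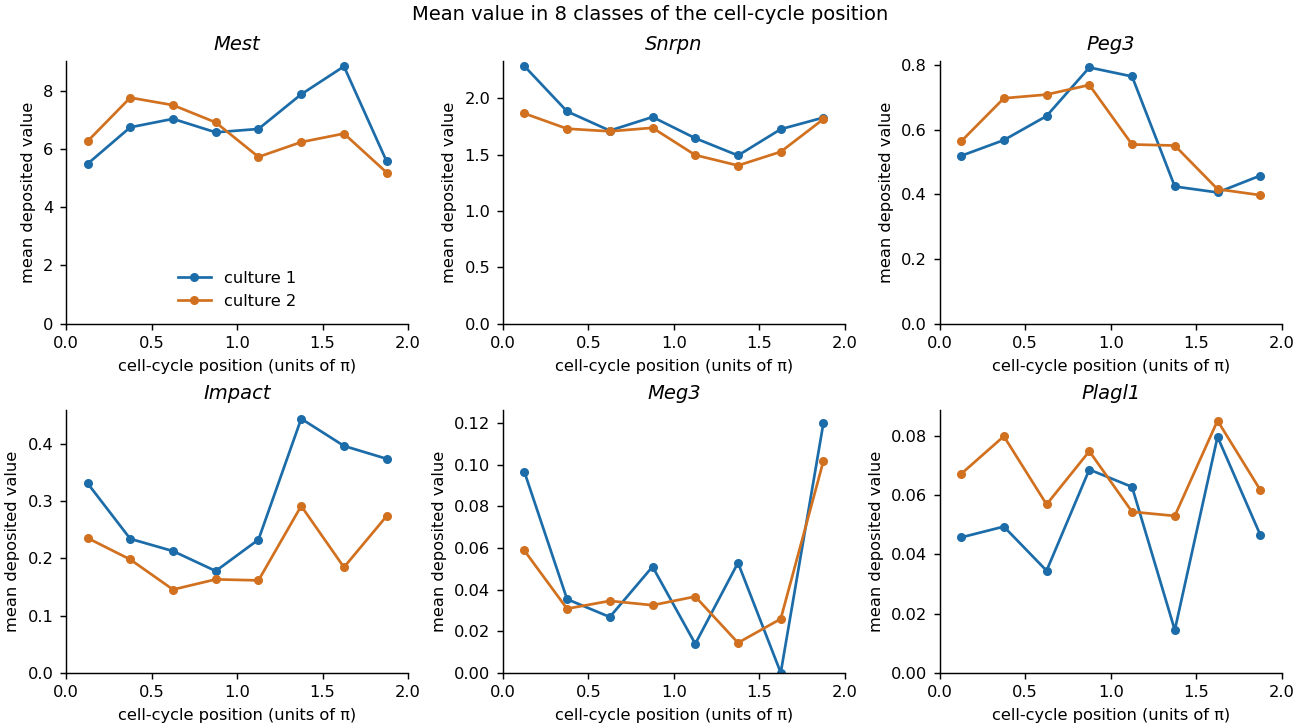
Mean deposited value (y axis, linear scale from 0) in 8 classes of the cell-cycle position (x axis, units of π) for each of the 6 genes and each culture. *Peg3* is highest from 0.75π to π (0.793 and 0.739), *Meg3* from 1.75π to 2π (0.120 and 0.102), and classes from 1.25π to 1.75π hold only 85 and 64 cells in culture 1.

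The authors also deposited stages from 3 methods, which did not all give the same picture. By Seurat, mean *Peg3* in G1 was 0.474 in culture 1 and 0.427 in culture 2, below S (0.633 and 0.670) and G2M (0.794 and 0.593). *Mest* was lowest in G1 as well, 5.63 and 5.36, and highest in S, 6.81 and 7.48. *Impact* was highest in G1, 0.367 and 0.267, against 0.209 and 0.162 in S. *Meg3* was 0.114 and 0.0939 in G1, 0.0348 and 0.0314 in S and 0.0274 and 0.0321 in G2M. By SchwabeCC, *Meg3* was highest in G2, 0.175 and 0.115, against 0.0555 and 0.0687 in M.G1. By share of cells the gap was smaller. *Meg3* was detected in 4.82% and 5.73% of G2 cells, against 3.79% and 5.68% of cells without a stage. *Mest* was lowest in G2 by this method, 5.34 and 5.002. It had 7.40 and 6.28 in M.G1 and 6.80 and 7.17 in G1.S. *Peg3* was lowest in M.G1, 0.452 and 0.385, and highest in S, 0.727 and 0.660. By cyclone, *Meg3* was highest in G1 again, 0.0769 and 0.0741, *Mest* differed little, with 6.25 and 5.96 in G1 against 6.27 and 5.78 in G2M, and *Peg3* was lowest in G1, 0.551 and 0.501. The stage in which *Mest* and *Meg3* were highest by mean value thus differed between methods, and for *Meg3* few cells carry most of the mean. The methods are not equally reliable: the paper describes SchwabeCC as leaving many labels missing and as placing G0/G1 cells in other stages. It also describes cyclone as appearing to label S phase poorly. SchwabeCC gave no stage to 2451 cells of culture 1 and 3151 of culture 2. The stages and the position come from the same cells and are not independent of each other.

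Whether the 6 genes vary together in single cells was read from Pearson's r of log2(value + 1) over the cells of each culture. Cells of a culture share a library and differ in depth, so r is a description. A pair counts where r is at least 0.1 in both cultures, which holds for 0.173% of all 56876445 gene pairs, or at most -0.1 in both, which holds for 0.0355%. Of the 15 pairs of imprinted genes, 0 passed either way. In sign, 6 pairs were positive in both cultures, 5 were negative in both and 4 were mixed, and the extremes of r were -0.138 and 0.0448 in culture 1, against -0.0715 and 0.0612 in culture 2. Such values are weak, and no group of the 6 genes stood out.

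*Mest* and *Snrpn*, the genes with the highest levels, had r of -0.138 in culture 1 and -0.0418 in culture 2. *Meg3* and *Mest* had -0.0880 and -0.0715, and among cells with *Meg3* 87.3% and 85.9% also held *Mest*, against 92.3% and 89.8% of cells without. *Snrpn* was detected in 84.3% and 79.6% of cells with *Meg3*, against 80.7% and 70.3% of cells without, with r of 0.0370 and 0.0612. *Peg3* and *Snrpn* had r of 0.0448 and 0.0525.

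**Figure D4:**
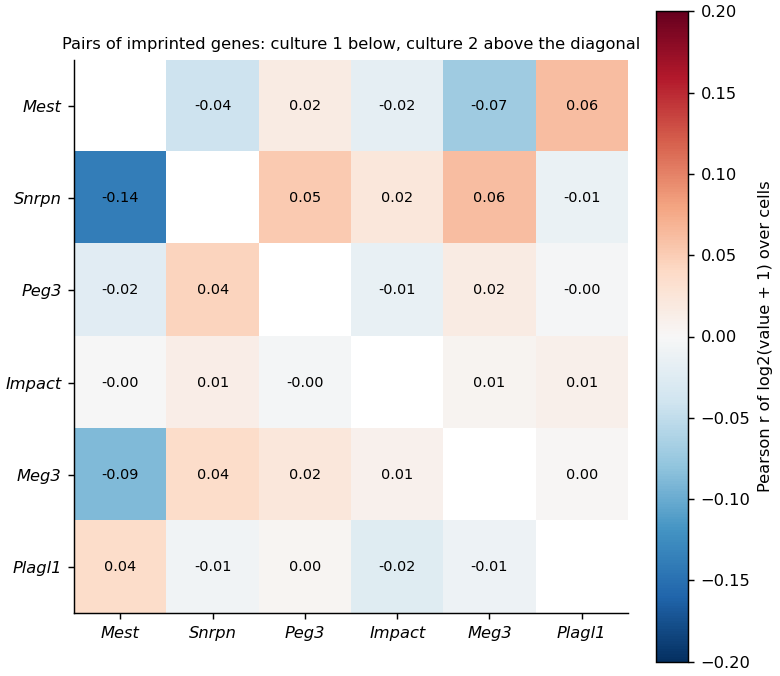
Pearson's r of log2(value + 1) over cells for the 15 pairs of imprinted genes, with culture 1 below and culture 2 above the diagonal and a colour scale from -0.2 to 0.2. No pair reaches 0.1, and the cell that departs most from 0 is *Mest*-*Snrpn* in culture 1 (-0.138).

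For each of the 6 genes, the genes most like it were taken as those with the highest lower r of both cultures. *Mest* had the most partners, with 67 of 10665 genes at r of at least 0.1 in both cultures and 19 at -0.1 or below. Over all gene pairs 0.173% and 0.0355% pass, and both shares of *Mest* were larger. Nearest were *Slc4a4*, a sodium bicarbonate cotransporter (0.212 in culture 1 and 0.202 in culture 2), *Slc1a3*, the glial glutamate transporter GLAST (0.299 and 0.201), and *Mt3*, a metallothionein of brain (0.275 and 0.201). The most opposed was *Eef1a1*, a translation elongation factor (-0.217 and -0.225), whose reads may be shared with processed copies.

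*Peg3* had 11 such partners and 7 opposed genes. Its share of partners, like that of *Snrpn*, was smaller than over all gene pairs. Its share of opposed genes was larger, and that of *Snrpn* smaller. Its nearest were *Lhfpl3* (0.144 and 0.159), *Basp1*, a membrane protein of growth cones (0.173 and 0.128), and *Gria2*, an AMPA receptor subunit (0.143 and 0.124), with *S100a11*, a calcium-binding protein, most opposed (-0.142 and -0.142). *Snrpn* had 7 partners, nearest *Basp1* (0.138 and 0.153), *Lhfpl3* (0.193 and 0.134) and *Stmn3*, of the stathmin family (0.124 and 0.148), and 1 opposed gene, *Igfbp2* (-0.176 and -0.130). *Peg3* and *Snrpn* thus had *Basp1* and *Lhfpl3* in common among their nearest 3, although r between them was at most 0.0525.

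For the less detected genes few or no partners passed. *Meg3* had 1, *Hmga1*, a chromatin protein (0.102 and 0.120), followed by *Pcsk1n* (0.0894 and 0.0966) and *Stmn4* (0.0860 and 0.0976), and its most opposed gene was *Ptn*, the growth factor pleiotrophin (-0.110 and -0.0972). *Impact* and *Plagl1* had 0. The nearest to *Impact* were *Sfxn5* (0.0694 and 0.0672), *Spry2*, a feedback inhibitor of receptor tyrosine kinase signalling (0.0735 and 0.0658), and *Pbxip1* (0.0688 and 0.0605), and *Ptma* was most opposed (-0.129 and -0.0820). Those nearest to *Plagl1* were *Mt3* (0.0704 and 0.0894), *Igfbp2* (0.0659 and 0.0847) and *Tubb2a* (0.0603 and 0.0597), with the ribosomal gene *Rps27a* most opposed (-0.0529 and -0.0897). Values this low in sparse genes are no finding.

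The label of neural progenitors was set beside its own markers and those of other neural cells. *Fabp7* was detected in 100% and 99.96% of cells, *Vim* in 99.2% and 99.9%, *Nes* in 93.3% and 89.8% and *Slc1a3* in 92.1% and 94.0%, while *Pax6* was detected in 21.1% and 23.1%. *Hes1* was detected in 44.5% and 50.5% and *Sox9* in 74.3% and 45.0%. *Olig2*, of the oligodendrocyte lineage, was detected in 97.3% and 91.9%. The other markers of oligodendrocyte progenitors were in few cells: *Pdgfra* in 8.77% and 1.81%, *Cspg4* in 11.8% and 13.7% and *Sox10* in 4.26% and 0.751%. Among neuronal markers, *Map2* was detected in 77.7% and 63.6%, *Dcx* in 7.34% and 1.56% and *Gad1* in 3.25% and 0.709%. Among astrocyte markers, *Aldh1l1* was detected in 43.2% and 28.8%, *Slc1a2* in 39.9% and 24.4% and *S100b* in 18.6% and 6.65%. Some markers of other neural cells were thus read in many cells. In all, 7 of 9 markers of radial glia, 4 of 5 of oligodendrocyte progenitors, 3 of 10 of neurons and 3 of 6 of astrocytes have a row. Of the lists for meningeal, endothelial, microglial, choroid plexus and erythroid cells 0 markers have a row, and these cells were not assessed.

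Each list was scored in a cell as the mean log2(value + 1) of its markers. *Mest* went with the radial glia score, at r of 0.330 in culture 1 and 0.113 in culture 2. In the 25% of cells with the lowest score its mean was 4.39 in culture 1 and 5.07 in culture 2, and in the 25% with the highest score it was 7.23 and 6.62. Median depth was also higher in the latter cells, at 20746 against 15233 UMIs for culture 1 and 14823 against 13928 for culture 2. After removal of the position and depth r was 0.276 and 0.106. Single markers differed: r with *Slc1a3* was 0.299 and 0.201, with *Fabp7* 0.266 and 0.197, and with *Vim* 0.222 in culture 1 but -0.150 in culture 2. With *Nes* it was 0.206 and 0.0179 and with *Hes1* 0.111 and 0.0227, with *Pax6* it was near 0 (-0.00419 and 0.0123), and with *Sox9* it was negative in both, -0.148 and -0.0337.

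*Mest* had r of -0.161 and -0.0560 with the score of oligodendrocyte progenitors and of -0.171 and -0.0270 with that of neurons. *Peg3* and *Snrpn* pointed the other way on the neuronal score, most of whose signal comes from *Map2*. Mean *Peg3* was 0.477 and 0.445 in the cells with the lowest scores and 0.803 and 0.682 in those with the highest (r 0.130 and 0.0995). Mean *Snrpn* was 1.73 and 1.69 in the lowest and 2.19 and 1.92 in the highest (r 0.110 and 0.0638). The highest group is 25% of cells, 1437 and 1765, and the lowest group holds 1437 cells of culture 1 but 2536 of culture 2, because cells tied at the score that bounds it were kept. Mean *Meg3* was 0.136 and 0.0884 at the lowest radial glia scores and 0.0368 and 0.0421 at the highest, with r of -0.0654 and -0.0420.

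**Figure D5:**
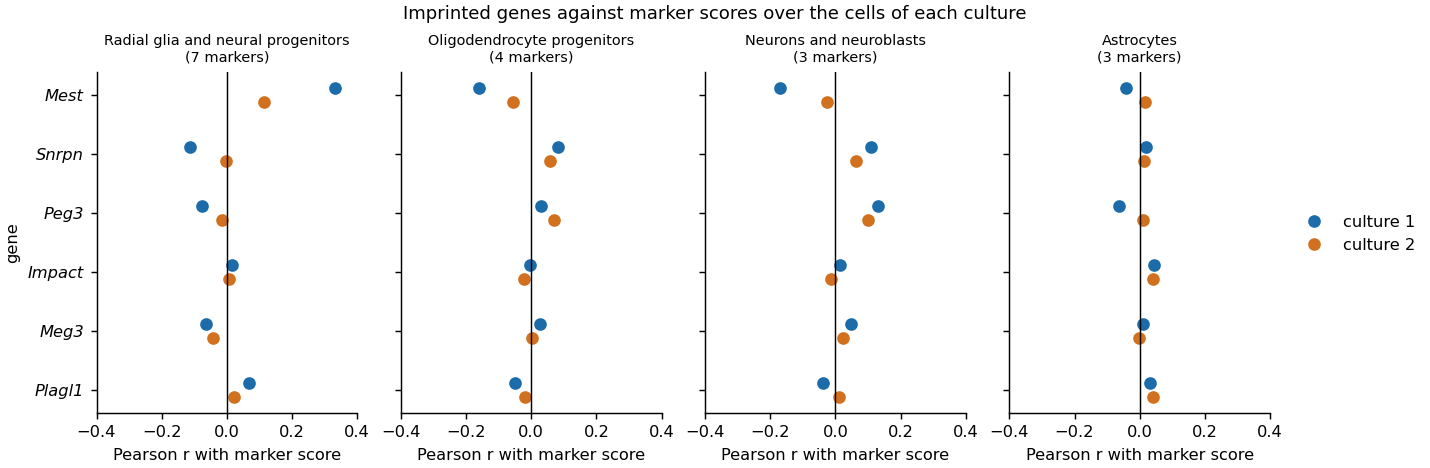
Pearson's r (x axis) between each imprinted gene (y axis) and the score of a marker list over the cells of each culture, 1 panel a list. *Mest* departs most from 0, at 0.330 and 0.113 with the radial glia score, and r in culture 2 is mostly nearer to 0 than in culture 1.

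Of 54 other imprinted genes, 22 have a row, and 1 of them, *Cd81*, varied with the position (4.55%, against 4.01% of all genes). *Cd81*, a tetraspanin, had R² of 0.118 in culture 1 and 0.0573 in culture 2, and its mean went from 12.2 and 11.4 between π and 1.25π to 22.1 and 17.4 in the last class. With depth in the fit *Cd81* no longer passed, and 0 of the 22 did. The median of the lower R² was 0.00158 over the 22. Highest in level were *Gnas*, the alpha subunit of the stimulatory G protein (22.6 and 22.9), *Cd81* (17.5 and 15.1) and *Nnat*, a small membrane proteolipid (5.90 and 5.04), so 2 of them had higher values than *Mest* in each culture. Among 132 pairs of one of the 6 genes with one of the 22, only *Peg3* and *Nnat* passed, with r of 0.131 and 0.111 (0.758%, against 0.173% of all pairs).

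In the insulin-like growth factor pathway, through which *Igf2* acts, 14 of 19 listed genes have a row and 0 varied with the position. The binding proteins *Igfbp2* (24.4 and 22.3) and *Igfbp3* (4.39 and 4.68) and the kinase *Akt1* (1.64 and 1.66) had the highest means. With depth in the fit 1 gene, *Igfbp3*, passed (lower R² 0.0515). The median of the lower R² over the 14 was 0.00203.

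Of 14 genes known to keep or erase imprints, 13 have a row and 3 varied with the position (23.1%, against 4.01% of all genes). These were *Uhrf1*, which brings the maintenance methyltransferase to replicated DNA (R² 0.370 and 0.345), *Dnmt1*, that methyltransferase (0.337 and 0.277), and *Ctcf*, the insulator protein (0.0853 and 0.0622). With depth in the fit 2 passed, *Uhrf1* and *Dnmt1*. Mean *Dnmt1* was 1.74 and 2.28 from 0.75π to π and 0.228 and 0.261 in the last class. Mean *Uhrf1* was 1.43 and 1.98 from 0.5π to 0.75π and 0.0791 and 0.0859 in the last class. These genes take part in the cell cycle, and the position was itself computed from cell-cycle genes, so their R² may not be independent of it. Highest in level were *Trim28*, the corepressor recruited to imprinted loci (1.97 and 1.73), *Ctcf* (1.70 and 1.48) and *Yy1* (1.29 and 1.23). The median of the lower R² over the 13 was 0.00185, about that of all genes.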

How the data were processed

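Single-cell RNA-seq libraries of 2 replicate cultures were used. By the methods and the submitters' processing notes, spliced and unspliced reads were counted by the authors with alevin (Salmon 1.3.0) on GRCm38. They removed outlying cells, mitochondrial genes and rarely expressed genes, and used Seurat 3.2.2. The deposited expression values are a signal on a linear scale, normalized to the depth of each cell. Whole reads were not recovered, because the values of a cell are not multiples of 1 step, so no count model or thinning was used. The smallest number of cells with a value over genes is 45. The depth of a cell is its total of estimated counts in a table deposited by the authors, which also gives the position in radians and stages as other values.

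Values were transformed as log2(value + 1) in Python 3.11.15 (numpy 2.4.6, scipy 1.17.1, pandas 2.3.3). Periodic loess was run in R 4.3.3 with a span of 0.3. Symbols were found for 10662 of 10666 identifiers. Coordinates are those of GENCODE vM21, an older release than that used for the deposited values. The fits were tested on simulated data. Cells were filtered no further and no doublet caller was run, as the authors had removed cells by doublet score.

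Named are the 10 members, the 3 genes most like and the 1 most opposed to each, and, of each list, those that pass the threshold and the 3 highest in level. *Gm38393*, *Copg2* and the single markers were named besides. The members and lists were chosen with earlier results of these data known. Alternatives were other pseudocounts, scalings, numbers of harmonics, thresholds, depth ranges, correlation measures and each culture left out.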

Additional observations from a re-analysis of the deposited data

How the results depend on the processing

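Of 48 recomputed counts, 41 stayed within 1.5 times the reported one. Some of these could not change: where the reported count is 0, a stricter threshold or a subset of the same genes must give 0 again. A threshold of 0.02 on R² gave 1 imprinted gene (*Mest*) in place of 0, 1 gene of the insulin-like growth factor pathway (*Igfbp3*) in place of 0, and depth in the fit gave 1 there as well (*Igfbp3*, lower R² 0.0515). Depth in the fit and a threshold of 0.1 each left 0 of the other imprinted genes in place of 1 (*Cd81*). At a threshold of -0.05 on r, 1 negative pair passed in place of 0 (*Meg3*-*Mest*). With either culture left out, counts ranged from 0 to 1 for negative pairs (*Mest*-*Snrpn*, -0.138, in culture 1 alone). They stayed at 0 for imprinted genes that vary with the position, and ranged from 3 to 4 for genes that keep imprints. The cause of each change was not tested beyond the alternative's own construction.

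Read in steps, a choice made after seeing the data, the ratio of culture 1 to culture 2 changed for *Meg3* and *Peg3*. For *Meg3* it went from 1.0005, near equality, to 0.586, and for *Peg3* from 1.18 to 1.92. The step of *Meg3* was read from 95 cells of culture 1 and 159 of culture 2. Leaving out the 96 cells whose barcode occurs in both cultures, also chosen then, changed no count. The maximum of the fitted line is given for no imprinted gene, because none passed the threshold, and only the highest class mean is given. No paired analysis was possible because there is only 1 group. Depth limits *Meg3* and *Plagl1*, seen in 3.43% to 5.76% of cells, more than *Mest*, and differences between cultures rest on 2 libraries.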
